A study of Homo sapiens with 24 samples.

Results

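The comparison described here set SKBR3 breast cancer cells kept for 7 days under the ACC inhibitor ND-646 against SKBR3 cells that stayed untreated for the same 7 days. It used 6 of the 24 RNA-seq libraries of the series, 3 of ND-646 cells and 3 of untreated day-7 cells, and every gene that passed the count filter was examined. SKBR3 is one established human cell line of HER2-amplified breast cancer, so the data describe a single genetic background. ND-646 was given at 250 nmol/L, the drug was renewed on day 3, and the cells were collected on day 7. The labels of untreated day-7 cells state no such renewal, so effects of the drug and of fresh medium on day 3 cannot be told apart. The question was how the transcriptome of cells under ND-646 differed when the culture time was held equal. TVB-3166, an inhibitor of fatty acid synthase, was also given at 250 nmol/L, whereas palbociclib at 1 μmol/L and bleomycin at 10 μmol/L followed the same schedule. These 3 treated groups and the untreated day-0 cells, each of 3 libraries, appear below only where ND-646 is compared with them.

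Acetyl-CoA carboxylase (ACC) makes malonyl-CoA, the building block that fatty acid synthase (FASN) extends into palmitate, and malonyl-CoA also restrains the entry of fatty acids into mitochondria through CPT1. ACACA encodes the cytosolic enzyme and ACACB the mitochondria-associated one, and both are targets of ND-646. SREBP transcription factors raise the genes of fatty acid and cholesterol synthesis when membrane lipids run low, whereas LXR factors raise sterol export. Therapy-induced senescence is a lasting arrest of the cell cycle after drug exposure, accompanied by lysosomal expansion and secretion of inflammatory factors.

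Levels are given as CPM, that is, counts scaled to the size of a library with TMM normalization, and always in the order of replicates 1, 2, and 3. They are not divided by transcript length, so they compare libraries and not genes. Log2 fold-changes are ND-646 minus untreated day-7, with their standard errors, and every adjusted p is the Benjamini-Hochberg value of edgeR's quasi-likelihood test over all genes tested. A gene is called higher or lower at an adjusted p under 0.05. Total counts ranged from 29405121 to 30402853 in ND-646 libraries and from 31791397 to 44316330 in untreated day-7 libraries. The methods say in general that cell-based observations rest on independent experiments, but neither they nor the labels say whether these replicates were separate cultures, so the p-values measure the spread between these libraries only.

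The libraries carried the defining genes of SKBR3. ERBB2, the amplified receptor, stood at 8592, 6378, and 7288 CPM in ND-646 cells and at 7429, 6645, and 6320.2 CPM in untreated cells, and the groups overlapped (log2 fold-change 0.11 ± 0.19, adjusted p = 0.674). Of 22 markers of fibroblasts, endothelium, blood, and basal epithelium, 4 passed the filter on low counts and the others were not tested here. The macrophage and lysosome marker CD68 (3.06) and the endothelial cadherin CDH5 (1.58) were called higher, and the other 2 were not called (-0.46 and -0.96). ND-646 replicate 1 stood apart from the other 2 ND-646 libraries: its distance to them over log2 CPM profiles was 82.0 and 85.3, against 41.4 between replicates 2 and 3 and 35.2 to 60.8 within other groups. Ribosomal protein genes took 10.9% of its counts, against 6.72% and 6.23% in the other 2 and 6.19% to 6.64% in untreated day-7 libraries. Values without this library are therefore given wherever they change a count by more than 1.5 times, and the same is done for every other library. Fewer cells in a given state and less RNA per cell cannot be told apart in these bulk libraries.

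A large share of the transcriptome differed between ND-646 and untreated day-7 cells, in both directions. Of 13704 genes tested, 2354 (17.2%) were called higher and 2338 (17.1%) lower in ND-646 cells, and with a fold-change of at least 2 the counts were 1100 (8.03%) and 1127 (8.22%). Among the genes of at least 2-fold, protein-coding genes numbered 931 higher and 1060 lower, whereas long non-coding RNAs leaned the other way, with 87 higher and 42 lower. All ND-646 libraries lay above all untreated ones in 25.6% of genes and below them in 25.3%. Leaving out ND-646 replicate 1 raised the calls to 3697 higher (26.7%) and 3921 lower (28.3%), and leaving out an untreated replicate lowered them, for replicate 1 to 1422 and 1557, for replicate 2 to 1610 and 1750, and for replicate 3 to 1264 and 1450. The genes of at least 2-fold moved less, since without ND-646 replicate 1 they numbered 1143 (8.25%) and 1246 (8.99%), of which 915 and 1039 were also counted with it.

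**Figure D1:**
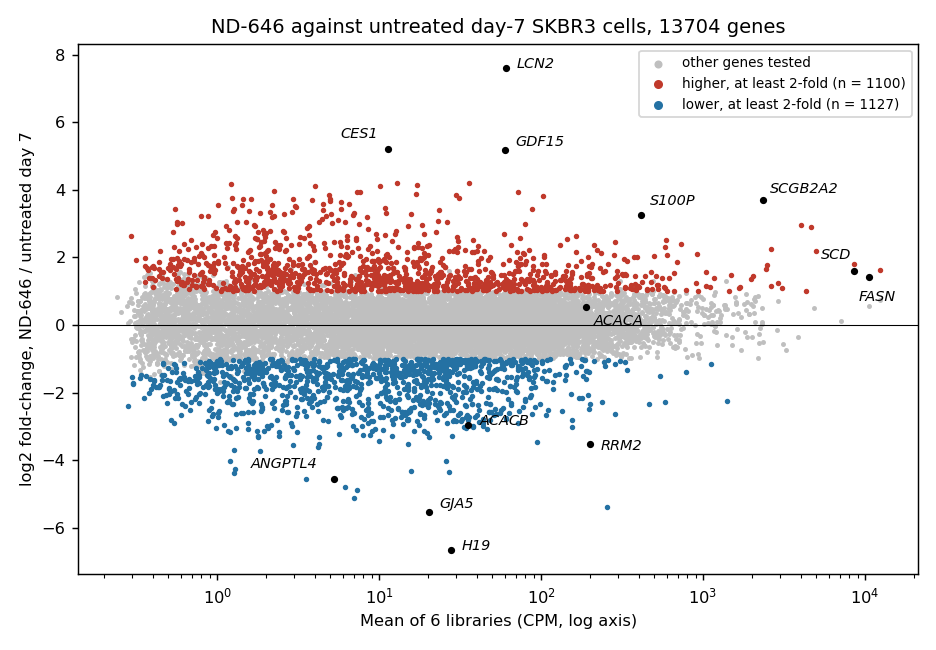
Log2 fold-change of ND-646 against untreated day-7 cells (y axis) by the mean CPM of the 6 libraries (x axis, log scale), with 1 point for each of the 13704 genes tested, and in color those called and at least 2-fold higher or lower. The colored genes lie on both sides in similar numbers, 1100 above and 1127 below 0, and LCN2 and H19 lie farthest out.

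Gene lists of pathways and complexes separated into those that moved almost wholly one way and those that split. Lists of DNA replication, mitosis, recombination and repair, nucleotide synthesis, and ribosome biogenesis held 0 genes called higher, whereas those of the ATF4 response, NRF2 targets, sterol synthesis, and LXR targets held 0 called lower. Each list is described below by how many of its tested members were called, against the 17.2% higher and 17.1% lower among all genes, whose median log2 fold-change was 0.021. Members absent from the deposited counts could not be tested. Those counts held 21 of 36 interferon effectors named, 26 of 43 NF-κB and inflammatory genes, and 17 of 25 PPAR and fasting-type genes. Without ND-646 replicate 1, 1 member each of the mevalonate, LXR, ATF4, and autophagy lists and 2 of the NRF2 list were called lower, and 1 beta-oxidation gene and 2 repair genes were called higher.

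**Figure D2:**
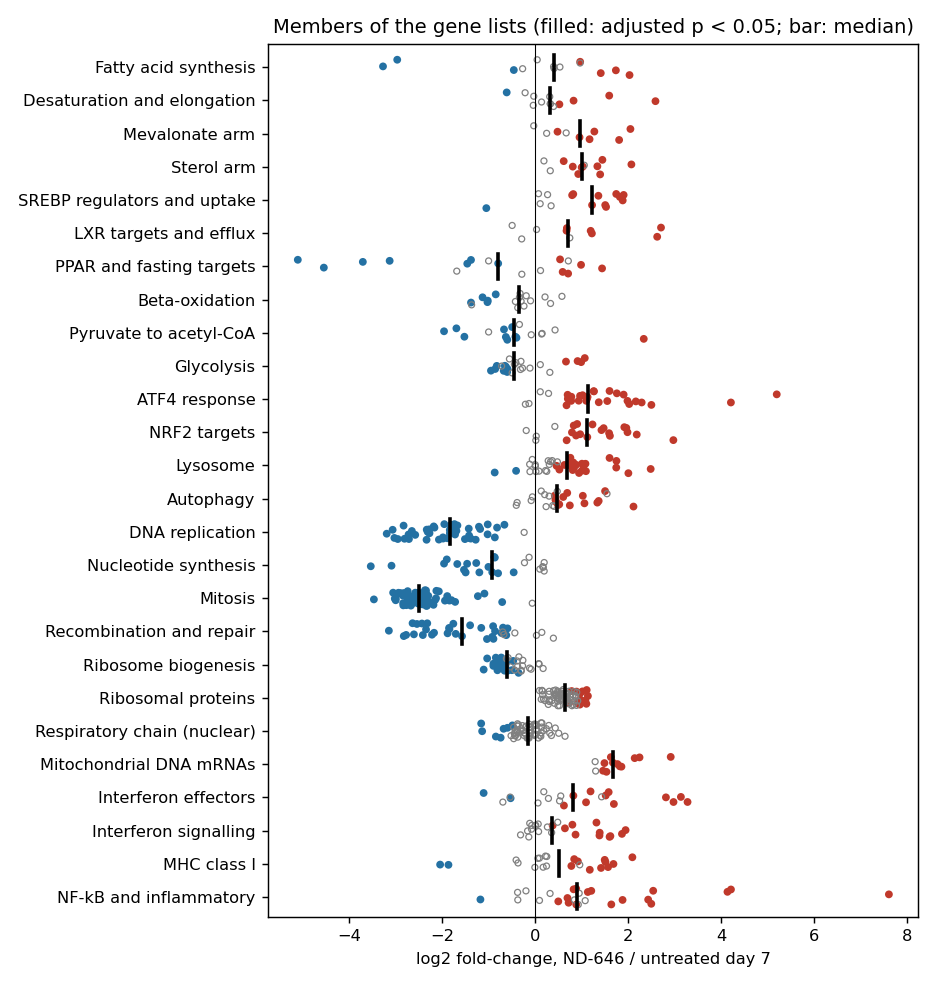
Log2 fold-change of ND-646 against untreated day-7 cells (x axis) for each tested member of 26 gene lists (rows), with filled points for members called at an adjusted p under 0.05 and a bar at the median. Replication and mitosis members lie almost wholly to the left, with medians of -1.84 and -2.51, and ATF4 and NRF2 members to the right, with medians of 1.12 and 1.12.

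Of the target genes of ND-646 only ACACB was called with all libraries, and it was lower. ACACB (GRCh37 chr12:109554392-109706031, plus strand) stood at 4.71, 8.86, and 10.6 CPM in ND-646 cells and at 67.2, 58.0, and 64.3 CPM in untreated cells. All 3 ND-646 libraries lay far below the untreated ones, and the mRNA was 7.84-fold lower (log2 fold-change -2.97 ± 0.28, adjusted p = 0.000208). ACACA (GRCh37 chr17:35441927-35766927, minus strand) stood at 169, 216, and 292 CPM against 165, 154, and 148 CPM. Its ND-646 libraries were all above the untreated ones but spread widely, and the difference did not pass the test (log2 fold-change 0.53 ± 0.20, adjusted p = 0.0728); without ND-646 replicate 1, the lowest of them, it did (log2 fold-change 0.70, adjusted p = 0.000556).

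Genes of fatty acid synthesis split, with FASN among those that rose. FASN (GRCh37 chr17:80036214-80056170, minus strand), which builds palmitate from malonyl-CoA, stood at 14400.5, 14348, and 17670.1 CPM in ND-646 cells and at 6341, 5751, and 5286 CPM in untreated cells, a 2.65-fold difference with no overlap (log2 fold-change 1.41 ± 0.20, adjusted p = 0.00127). MID1IP1, which activates ACC by promoting its polymerization, rose from 40.8, 41.8, and 39.7 CPM to 191, 153, and 159 CPM (log2 fold-change 2.03 ± 0.13, adjusted p = 5.54e-05). ACSS2, which makes acetyl-CoA from acetate, and the NADPH-producing malic enzyme ME1 were also called higher (log2 fold-changes 1.73 and 0.96). On the lower side, OLAH, a thioesterase that releases medium-chain fatty acids from FASN, fell by 3.28 on the log2 scale, and MLYCD, which degrades malonyl-CoA, fell by 0.46 (adjusted p = 0.0458), a call lost without any 1 library other than ND-646 replicate 1 (adjusted p up to 0.143). The MLYCD locus overlaps that of OSGIN1 on the same strand, so its value is uncertain. Of the 13 members of the fatty acid synthesis list, 4 were thus called higher and 3 lower, with a median log2 fold-change of 0.40.

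The desaturase genes SCD and FADS2 rose as FASN did. SCD, which introduces the first double bond into saturated acyl chains, stood at 13879, 10842, and 13606 CPM against 3846, 4999.9, and 3793 CPM in untreated cells, 3.01-fold higher without overlap (log2 fold-change 1.59 ± 0.21, adjusted p = 0.000919). FADS2, the desaturase that starts the synthesis of polyunsaturated fatty acids, rose most in this list, from 19, 27.5, and 16.6 CPM to 157, 86.9, and 138 CPM (log2 fold-change 2.58 ± 0.27, adjusted p = 0.000296). The dehydratases of the elongation cycle split, with HACD2 called higher (0.82) and HACD3 called lower (-0.62). Of 13 tested desaturases and elongases, 4 were called higher and 1 lower, or 2 lower without ND-646 replicate 1.

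Cholesterol synthesis rose along most of its length. Of the 9 genes of the mevalonate arm, which runs from acetyl-CoA to farnesyl diphosphate, 6 were called higher and 0 lower (median log2 fold-change 0.95), and of the 12 genes from squalene to cholesterol 9 were called higher and 0 lower (median 1.01). FDPS, the farnesyl diphosphate synthase, stood at 1372, 363, and 681 CPM in ND-646 cells and at 203, 184, and 192 CPM in untreated cells. The 3 ND-646 libraries differed among themselves widely, yet the lowest was above every untreated library (log2 fold-change 2.05 ± 0.41, adjusted p = 0.00627). MVD, the decarboxylase that makes isopentenyl diphosphate, stood at 201, 61.7, and 108 CPM against 37.1, 32.9, and 35.0 CPM (log2 fold-change 1.80 ± 0.36, adjusted p = 0.00649), again with replicate 2 the lowest and no overlap. IDI1 (1.27), the isomerase of the next step, and HMGCS1 (0.95), an early synthase of the arm, were called higher as well.

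MSMO1, a C4-methylsterol oxidase, was the member of the squalene-to-cholesterol list with the largest difference, at 634, 287, and 445 CPM against 108, 115, and 99.6 CPM (log2 fold-change 2.07 ± 0.26, adjusted p = 0.000751). FDFT1 (squalene synthase, 1.44), SQLE (squalene epoxidase, 1.4), LSS (lanosterol synthase, 1.33), and DHCR7 (the last reductase, 1.02) were also called higher. CYP51A1, the lanosterol demethylase, was called higher (1.00, adjusted p = 0.0103), though not without untreated replicate 3 (adjusted p = 0.0508). In both arms ND-646 replicate 1 was the highest library and replicate 2 the lowest: the median member of the mevalonate arm lay 1.34, 0.46, and 1.13 above the untreated mean on the log2 scale, and that of the squalene-to-cholesterol arm 1.49, 0.50, and 0.92.

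Regulators and uptake of sterols followed. INSIG1, which holds SREBP in the endoplasmic reticulum and is itself an SREBP target, stood at 446, 195, and 329 CPM against 82.9, 100.1, and 89.6 CPM (log2 fold-change 1.82 ± 0.27, adjusted p = 0.00156), and the groups did not overlap. SREBF1, the SREBP gene linked to fatty acid synthesis, was called higher (log2 fold-change 1.36 ± 0.18, adjusted p = 0.000881), whereas SREBF2, linked to cholesterol synthesis, did not pass the test (log2 fold-change 0.34 ± 0.14, adjusted p = 0.0948) except without ND-646 replicate 1 (adjusted p = 0.0338). VLDLR (1.90), the ubiquitin ligase RNF145 (1.88), the sterol carrier STARD4 (1.52), and the lysosomal sterol carrier NPC2 (1.74) rose, and so did MYLIP (1.22), a ubiquitin ligase controlled by LXR. Of 15 members tested 10 were called higher, and the 1 called lower was TMEM97 (-1.05), a sterol-responsive membrane protein. The sterol regulatory element, searched as TCACNCCAC on both strands of the RefSeq promoter windows (GRCh38.p14), was found in 0 of 7 windows of the mevalonate arm, 0 of 9 from squalene to cholesterol, and 1 of 13 of the regulators (7.69%), against 1.04% of all windows.

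Export genes rose beside synthesis genes. ABCG1, a cholesterol exporter controlled by LXR, stood at 306, 247, and 294 CPM in ND-646 cells and at 44.4, 48.8, and 43.5 CPM in untreated cells, 6.15-fold higher (log2 fold-change 2.62 ± 0.14, adjusted p = 5.47e-05). ABCA1, the other main exporter, stood at 7.54, 18.1, and 24.3 CPM against 1.59, 2.49, and 3.62 CPM (log2 fold-change 2.70 ± 0.46, adjusted p = 0.00304). Its lowest ND-646 library was replicate 1, the reverse of the order seen in the synthesis genes. The phospholipid transfer protein PLTP (1.22) and the lysophospholipid acyltransferase LPCAT3 (1.19) were called higher too, and the LXR list held 6 of 10 members higher and 0 lower.

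**Figure D3:**
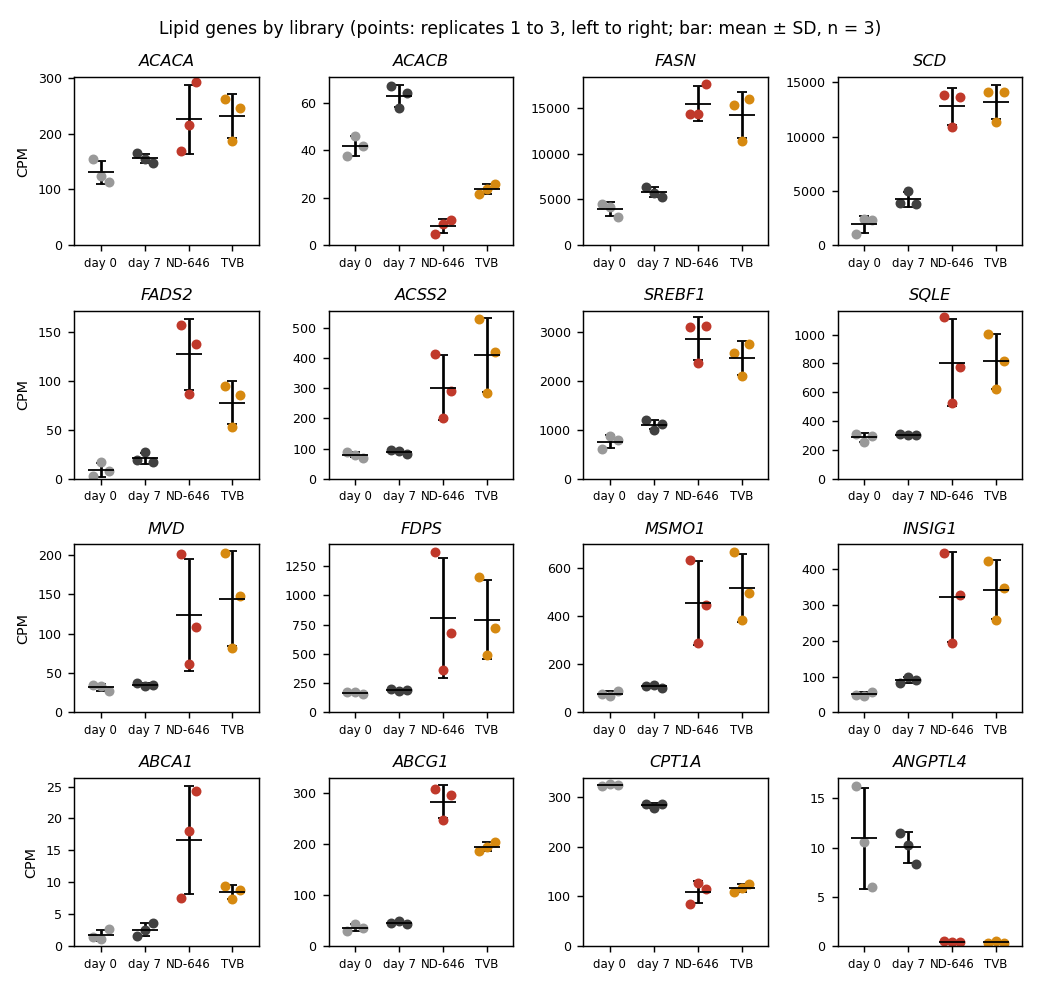
CPM (y axis, from 0) of 16 lipid genes (panels) in untreated day-0, untreated day-7, ND-646, and TVB-3166 cells, with 1 point for each of 3 libraries and bars for the mean ± SD. ACACB, CPT1A, and ANGPTL4 lie lower in all ND-646 libraries than in untreated day-7 libraries, and the other genes drawn lie higher, ACACA with a wide spread.

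Some genes of fatty acid use fell. ANGPTL4 (GRCh37 chr19:8428173-8439254, plus strand), a secreted inhibitor of lipoprotein lipase and a known PPAR target, stood at 0.471, 0.395, and 0.421 CPM in ND-646 cells and at 11.5, 10.2, and 8.34 CPM in untreated cells, 23.4-fold lower (log2 fold-change -4.55 ± 0.25, adjusted p = 5.47e-05). The groups lay far apart. CPT1A, the gate to mitochondrial oxidation that malonyl-CoA restrains, fell from 286, 277, and 287 CPM to 85.2, 127, and 115 CPM (log2 fold-change -1.38 ± 0.17, adjusted p = 0.000604). The lipid droplet coat gene PLIN2 (-1.46) and the mitochondrial carrier SLC25A34 (-3.13) were called lower, whereas TXNIP, which restrains glucose uptake, was called higher (1.44, adjusted p = 0.0184, and up to 0.0786 without untreated replicate 1 or 3).

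Of the 17 PPAR and fasting-type genes tested, 7 were called lower and 5 higher. The 5 became 3 without ND-646 replicate 2 or 3, 1 without untreated replicate 1, and 0 without untreated replicate 3. Beta-oxidation enzymes had 0 of 17 members called higher and 5 called lower, among them HADH, which acts in the third step of the cycle (-1.14), and ETFDH, which passes its electrons on to the respiratory chain (-1.03); without ND-646 replicate 1 the 5 became 14. Triglyceride and lipid droplet genes were near the background, with 4 of 21 higher and 3 lower. Those 4 ranged from 1 to 7 and those 3 up to 6 with 1 library left out, the highest value of each being without ND-646 replicate 1 and the lowest without untreated replicate 1 or 2.

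Around pyruvate, 9 of 16 genes were called lower and 1 higher. PC, the pyruvate carboxylase that feeds oxaloacetate to the citrate cycle, fell from 96.5, 91.0, and 85.0 CPM to 23.2, 24.7, and 22.4 CPM (log2 fold-change -1.96 ± 0.13, adjusted p = 5.54e-05). The pyruvate dehydrogenase kinases PDK1 (-1.53) and PDK2 (-1.70), which switch the complex off, were called lower, and the phosphatase PDP1, which switches it on, was the 1 gene called higher, at 3.51, 8.07, and 7.86 CPM against 1.08, 1.59, and 1.19 CPM (log2 fold-change 2.33 ± 0.36, adjusted p = 0.00197). PDK4, the kinase most responsive to fasting, did not pass the test (-1.0, adjusted p = 0.0648). Without ND-646 replicate 1, 2 genes of this list were called higher.

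Glycolysis leaned lower, with 8 of 23 genes called lower and 17 below 0 (median log2 fold-change -0.45). The 4 called higher were a share close to the 17.2% of all genes. The glucose transporter SLC2A1 (0.99) and PFKFB3 (1.06), which makes the activator of phosphofructokinase, were higher, whereas the pyruvate kinase PKM (-0.95) was lower. The 8 became 13 without ND-646 replicate 1, 5 without ND-646 replicate 2 or untreated replicate 2, and 4 without untreated replicate 3, and the 4 became 2 without any 1 untreated library. The aldolase ALDOA was called higher (0.91, adjusted p = 0.0238, and up to 0.0959 without any 1 untreated library), but it shares its locus with LOC112694756, which fell from 524, 491, and 471 CPM to 12.7, 10.7, and 12.3 CPM (-5.39). Reads of these 2 entries may have been split between them, and both values are uncertain. Summed, they gave 3410, 1873, and 1978 CPM in ND-646 cells and 1949, 1603, and 1744 CPM in untreated cells, and the groups overlapped.

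Stress pathways that guard amino acid supply and redox balance rose. ATF4 is the transcription factor of the integrated stress response, and of 29 of its known targets and partners 25 were called higher and 0 lower (median log2 fold-change 1.12). GDF15, a secreted stress cytokine, stood at 193, 69.3, and 86.5 CPM in ND-646 cells and at 1.85, 5.50, and 2.14 CPM in untreated cells, 36.6-fold higher (log2 fold-change 5.19 ± 0.56, adjusted p = 0.000348). DDIT3, which encodes the stress factor CHOP, stood at 61.6, 49.7, and 45.6 CPM against 7.41, 12.0, and 8.16 CPM (log2 fold-change 2.50 ± 0.22, adjusted p = 0.000148). For NIBAN1, a stress-induced regulator of translation, the untreated libraries themselves ranged widely, at 0.375, 9.03, and 1.75 CPM against 48.3, 79.3, and 76.6 CPM (log2 fold-change 4.21 ± 0.88, adjusted p = 0.00757), and none of them reached an ND-646 library. CHAC1, which degrades glutathione (2.29), the mTORC1 inhibitors DDIT4 (2.02) and SESN2 (1.75), and the cystine transporter SLC7A11 (1.98) were called higher.

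ASNS, the asparagine synthetase, stood at 575, 369, and 347 CPM against 177, 295, and 198 CPM (0.93, adjusted p = 0.0221, and up to 0.0955 without untreated replicate 1 or 3). Its promoter is shown because ATF4 is known to act through a composite element whose core letters, TGATGNAA, a search of both strands found there. Among the promoters of the list with a window of 300 bases in RefSeq (GRCh38.p14), 5 of 24 (20.8%) held these letters, against 1.55% of the windows of all 10616 genes searched. Capitals mark the match.
ASNS, chr7:97872409-97872488, minus strand: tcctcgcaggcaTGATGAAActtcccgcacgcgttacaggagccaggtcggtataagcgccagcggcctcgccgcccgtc

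NRF2 targets, which make glutathione and NADPH and store iron, had 17 of 21 members called higher and 0 lower (median log2 fold-change 1.12). FTH1, the ferritin heavy chain, stood at 10141, 6129, and 5036 CPM against 765, 1137, and 793 CPM (log2 fold-change 2.97 ± 0.31, adjusted p = 0.0003), and the light chain FTL rose as well (1.96). Both ferritin genes have many pseudogenes, and their counts may include or lose reads to these. OSGIN1 (2.18), the glutathione peroxidase GPX2 (1.92), the heme oxygenase HMOX1 (1.60), and both subunits of glutamate-cysteine ligase, GCLM (1.59) and GCLC (1.47), were called higher. OSGIN1 overlaps MLYCD on the same strand, and reads may have been shared between them.

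Lysosomal genes, whose products carry the enlarged lysosomal mass of senescent cells, had 22 of 38 members called higher and 2 lower. CD63, a tetraspanin of late endosomes, rose from 145, 157, and 142 CPM to 886, 437, and 475 CPM (log2 fold-change 2.0 ± 0.26, adjusted p = 0.000899). The cathepsin CTSD (1.00) and the saposin precursor PSAP (1.09) were called higher. The count of 2 lower became 4 without ND-646 replicate 1, 1 without replicate 2, and 0 without any 1 of the other libraries. Autophagy receptors and regulators had 14 of 26 members called higher and 0 lower, and the 14 became 6, 9, and 7 without untreated replicate 1, 2, or 3. Chaperones and quality control of the endoplasmic reticulum did not move as a group, with 7 of 22 higher, 1 lower, and a median of 0.080; without ND-646 replicate 1 the 1 lower became 7.

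Cell cycle genes fell almost throughout, and the replication and mitosis lists had the highest share of members called in 1 direction of the 33 lists. Of 45 replication genes 44 were called lower (median log2 fold-change -1.84), and of 65 mitosis genes 64 were called lower (median -2.51), against 17.1% of all genes. MKI67, which encodes the proliferation marker Ki-67, stood at 23.1, 30.2, and 49.5 CPM in ND-646 cells and at 342, 244, and 245 CPM in untreated cells (log2 fold-change -3.02 ± 0.30, adjusted p = 0.00025). MYBL2, a transcription factor of the late cell cycle, stood at 17.8, 13.3, and 16.2 CPM against 197, 141, and 183 CPM, 11.1-fold lower (log2 fold-change -3.47 ± 0.19, adjusted p = 5.47e-05). The groups lay far apart in both. The kinase CDK1 (-2.51), the checkpoint kinase BUB1B (-2.90), the condensin subunit NCAPH (-3.06), the kinetochore scaffold KNL1 (-3.0), the securin PTTG1 (-2.84), and the cyclin CCNB2 (-2.51) were among the members called lower. LMNB1, a nuclear lamin whose loss is a known mark of senescent cells, fell from 80.03, 66.5, and 79.9 CPM to 15.5, 14.3, and 16.3 CPM (log2 fold-change -2.30 ± 0.14, adjusted p = 5.47e-05). The mitotic phosphatase CDC25B was the member not called, at 232, 142, and 177 CPM against 207, 175, and 190.3 CPM (-0.066, adjusted p = 0.808).

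In replication, CDC45, part of the helicase that opens the origin, stood at 3.30, 3.73, and 4.70 CPM against 37.3, 30.7, and 39.3 CPM (log2 fold-change -3.20 ± 0.19, adjusted p = 5.47e-05). MCM10 (-3.03), the origin-firing kinase CDC7 (-3.07), the licensing factor CDC6 (-2.28), and the polymerase alpha subunit POLA2 (-1.81) were called lower. RRM2, the regulated subunit of ribonucleotide reductase, which makes deoxynucleotides, stood at 34.4, 26.7, and 34.7 CPM against 413, 305, and 389 CPM, 11.6-fold lower (log2 fold-change -3.54 ± 0.18, adjusted p = 5.47e-05), and the nucleotide synthesis list had 16 of 23 members lower and 0 higher. Recombination and Fanconi genes had 29 of 35 members called lower and 0 higher (median -1.58); without ND-646 replicate 1, 2 were called higher.

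Promoters of mitosis and replication genes are printed because the members fell together. The letters TTTGAA, the core of the cell cycle homology region through which the DREAM complex is known to act, were found on either strand in the windows of 34 of 55 mitosis genes (61.8%), against 9.47% of all windows. TTTGGCG, a core of E2F sites, was found in 14 of 41 replication genes (34.1%) against 3.0% of all windows, but in only 4 of 55 mitosis genes (7.27%). TTTCCCG, another E2F core, was found in 12 of 41 replication genes (29.3%) against 6.67%. A match is a description of letters and not a measured site. Each stretch printed surrounds the match, and capitals mark TTTGAA in the first 3, read as TTCAAA on the other strand in KIF11, and TTTGGCG in the last 3.
CCNB2, chr15:59105086-59105145, plus strand: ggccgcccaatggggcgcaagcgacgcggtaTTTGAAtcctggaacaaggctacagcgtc
BUB1B, chr15:40161009-40161068, plus strand: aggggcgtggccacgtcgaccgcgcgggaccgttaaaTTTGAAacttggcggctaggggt
KIF11, chr10:92593070-92593129, plus strand: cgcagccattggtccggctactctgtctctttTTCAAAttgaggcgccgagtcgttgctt
CDC45, chr22:19479860-19479919, plus strand: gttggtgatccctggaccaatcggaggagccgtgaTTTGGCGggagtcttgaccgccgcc
CDC6, chr17:40287819-40287878, plus strand: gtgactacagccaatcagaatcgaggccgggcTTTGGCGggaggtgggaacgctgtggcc
POLA2, chr11:65261902-65261961, plus strand: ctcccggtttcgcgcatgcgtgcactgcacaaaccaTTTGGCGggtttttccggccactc

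Factors that control the G1 phase moved in both directions, with 4 of 27 called higher and 15 lower. E2F1 fell from 46.9, 39.8, and 51.2 CPM to 9.55, 10.8, and 11.5 CPM (log2 fold-change -2.12 ± 0.16, adjusted p = 8.81e-05), and E2F2 (-3.54), E2F7 (-3.13), and E2F8 (-3.30) were lower too. CDKN1A, which encodes the CDK inhibitor p21, stood at 87.2, 30.6, and 49.2 CPM against 10.8, 9.87, and 14.9 CPM, 4.65-fold higher without overlap (log2 fold-change 2.22 ± 0.36, adjusted p = 0.00237). CDKN2B, the inhibitor p15 of CDK4 and CDK6, rose from 8.22, 10.7, and 10.7 CPM to 19.6, 26.3, and 27.8 CPM (log2 fold-change 1.31 ± 0.19, adjusted p = 0.00145), and the cyclin CCND1 was also called higher (0.86).

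Ribosome biogenesis factors, which make ribosomal RNA into subunits, had 23 of 39 members called lower and 0 higher (median -0.61), and 35 without ND-646 replicate 1. The proteins of the ribosome itself did not follow them. Of 77, 14 were called higher and 0 lower, a share close to the background, and this count rests on single libraries: it was 30 higher and 6 lower without ND-646 replicate 1, 30 higher without ND-646 replicate 3, and 0 without any 1 untreated library. The median member lay 1.27, 0.24, and 0.16 above the untreated mean in the 3 ND-646 libraries, so that replicate 1 alone was far from 0. Nuclear genes of the respiratory chain showed the same split, with 0.43, -0.45, and -0.56. Of 63 such genes 7 were called lower and 0 higher, and 54 were called lower without ND-646 replicate 1 and 4 without ND-646 replicate 3 or any 1 untreated library.

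**Figure D4:**
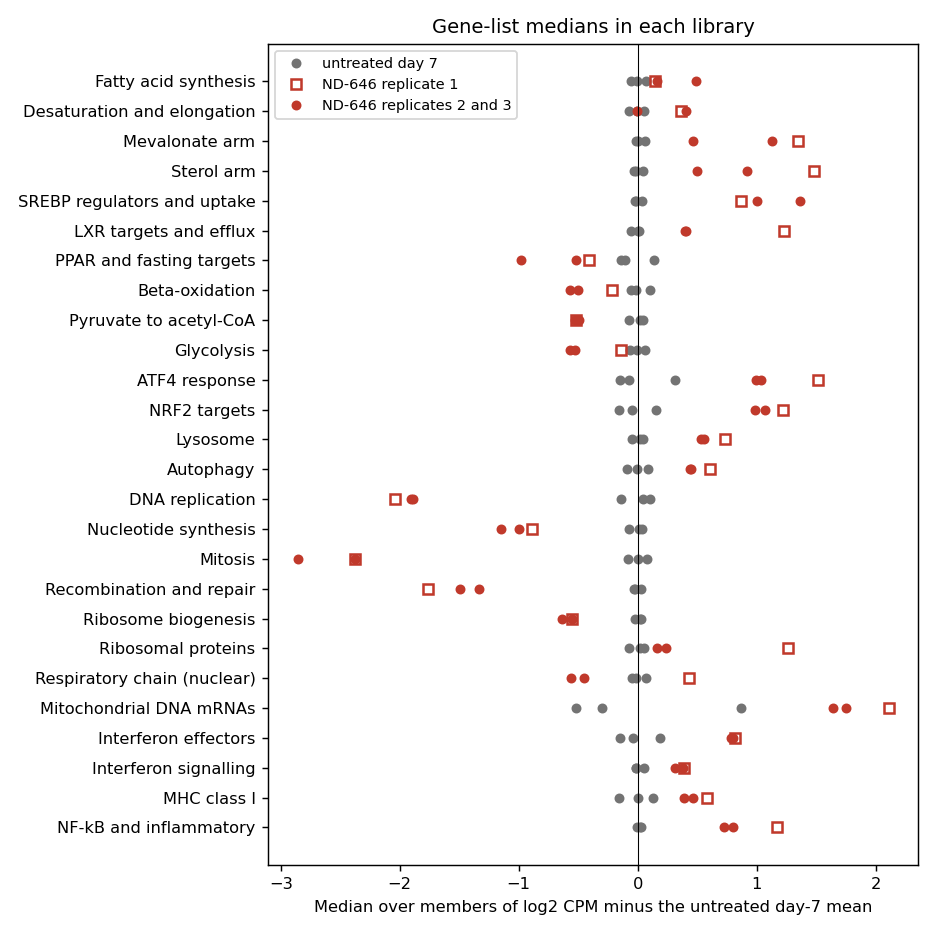
Median over the members of a list of log2 CPM minus the untreated day-7 mean (x axis) for 26 gene lists (rows), with 1 point per library, gray for untreated day 7, open squares for ND-646 replicate 1, and filled red points for ND-646 replicates 2 and 3. Mitosis lay at -2.37, -2.86, and -2.38 in the 3 ND-646 libraries, whereas ribosomal proteins lay at 1.27 in replicate 1 and at 0.24 and 0.16 in the other 2.

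mRNAs encoded by mitochondrial DNA were higher than in untreated day-7 cells, with 11 of 13 called higher and 0 lower (median log2 fold-change 1.67). COX2, a subunit of cytochrome oxidase, stood at 11816, 6209, and 6455 CPM in ND-646 cells and at 1695, 764, and 758 CPM in untreated cells (log2 fold-change 2.91 ± 0.41, adjusted p = 0.00123), and ND5, a subunit of complex I, at 3568, 4612, and 4813 CPM against 1466, 583, and 678 CPM (log2 fold-change 2.24 ± 0.36, adjusted p = 0.00231). Untreated replicate 1 was the highest of its group in both, and the groups did not overlap. The 11 became 5 without untreated replicate 3, and against untreated day-0 cells 1 of 13 was called higher and the median was 0.42. These mRNAs took 5.94%, 5.36%, and 5.19% of the counts in ND-646 cells, 2.93%, 1.22%, and 1.37% in untreated day-7 cells, and 8.01%, 1.22%, and 1.51% in untreated day-0 cells. Of 22 entries annotated as transfer RNA 16 were tested, which carry mitochondrial-type names, and these 16 and both ribosomal RNA entries of the table were also at least 2-fold higher. Such transcripts have nuclear copies, and their levels depend on whether total RNA or poly(A) RNA was sequenced, on which the methods and the labels differ.

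Innate immune genes rose in part. Interferon-stimulated effectors had 11 of 21 tested members called higher and 2 lower (median 0.82), with 36 members named. OAS1, which senses double-stranded RNA and activates RNase L, stood at 30.7, 29.5, and 25.4 CPM in ND-646 cells and at 1.76, 4.40, and 2.67 CPM in untreated cells, 9.68-fold higher (log2 fold-change 3.27 ± 0.31, adjusted p = 0.000209). OAS2, of the same family, stood at 6.21, 11.1, and 6.74 CPM against 0.529, 1.04, and 1.19 CPM (log2 fold-change 3.13 ± 0.37, adjusted p = 0.000557). PARP9 (2.97), PARP14 (2.81), and PLSCR1 (1.69) rose, OAS3 less so (0.82), and IFITM1 did not pass the test (-0.70, adjusted p = 0.106), though without ND-646 replicate 1 it was lower (-1.04, adjusted p = 0.00646). The 11 became 7 without untreated replicate 1, and the 2 lower became 4 without ND-646 replicate 1 and 1 without any 1 of the others. Several of these genes were at a few CPM.

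Signalling genes of the pathway had 11 of 24 members higher and 0 lower. IRF9, which completes the factor that reads interferon signals, rose from 4.74, 6.66, and 6.95 CPM to 26.3, 24, and 20.5 CPM (log2 fold-change 1.94 ± 0.19, adjusted p = 0.000253), and IRF1 (1.86), IRF7 (1.60), and the DNA-sensing adaptor STING1 (1.61) were called higher. The interferon-stimulated response element, searched as GAAANNGAA on both strands, was found in the windows of 12 of 16 effectors (75.0%), against 6.41% of all windows. A stretch of 3 of them is printed with the letters of the match in capitals, where TTCGGTTTC and TTCGATTTC in IFIT5 are the element read on the other strand. IFIT5 itself, which binds viral RNA, was called higher (0.62, adjusted p = 0.0239, and up to 0.115 without any 1 library other than ND-646 replicate 1).
OAS3, chr12:112938414-112938473, plus strand: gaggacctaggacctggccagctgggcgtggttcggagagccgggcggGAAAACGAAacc
PARP14, chr3:122680779-122680838, plus strand: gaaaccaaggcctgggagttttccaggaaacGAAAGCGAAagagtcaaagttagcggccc
IFIT5, chr10:89414508-89414567, plus strand: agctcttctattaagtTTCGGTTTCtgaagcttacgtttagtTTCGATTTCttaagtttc

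MHC class I presentation, which displays peptides to T cells, had 10 of 22 genes called higher and 2 lower. HLA-B stood at 19, 14.7, and 12.8 CPM against 4.67, 6.92, and 5.73 CPM (log2 fold-change 1.41 ± 0.22, adjusted p = 0.00177), and HLA-C (1.56), the peptide loader TAPBP (1.17), the immunoproteasome subunit PSMB10 (1.51), and NLRC5 (2.09), which activates these genes, were higher. HLA genes are close copies of one another, and reads may have been shared between them. The 2 called lower became 1 without any 1 library other than ND-646 replicate 1.

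NF-κB factors, chemokines, and acute-phase genes had 16 of 26 tested members called higher and 1 lower (median 0.90), with 43 members named. LCN2 (GRCh37 chr9:130911350-130915732, plus strand), a secreted siderophore-binding lipocalin, stood at 145, 119, and 96.5 CPM in ND-646 cells and at 0.375, 1.22, and 0.267 CPM in untreated cells. It was 195-fold higher, the largest rise among genes named by size (log2 fold-change 7.61 ± 0.48, adjusted p = 5.54e-05). The chemokines CCL22, at 43.8, 27.4, and 25.5 CPM against 1.65, 2.26, and 1.54 CPM (log2 fold-change 4.13 ± 0.27, adjusted p = 5.84e-05), and CX3CL1, at 304, 202, and 231 CPM against 51.7, 39.3, and 34.7 CPM (log2 fold-change 2.54 ± 0.21, adjusted p = 0.000125), rose without overlap. The polymeric immunoglobulin receptor PIGR (4.21), the macrophage growth factor CSF1 (2.43), the apoptosis inhibitor BIRC3 (2.50), the adhesion molecule ICAM1 (1.88), and the chemokine CCL2 (1.64) were called higher. TNFAIP2 was the member called lower (-1.18), and 2 were lower without ND-646 replicate 2.

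TNFAIP3, a feedback inhibitor of NF-κB, stood at 9.59, 8.97, and 12.3 CPM against 6.13, 4.29, and 6.23 CPM (0.88, adjusted p = 0.0162, and up to 0.0575 without ND-646 replicate 3 or untreated replicate 2). Its promoter is printed for the NF-κB core, searched as GGGNNTTCC on both strands and found here as GGAAATCCC. In this list 3 of 18 windows (16.7%) held the letters, against 8.17% of all windows. They were those of TNFAIP3, BIRC3, and TNFAIP2, and TNFAIP2 was the member called lower (-1.18).
TNFAIP3, chr6:137867179-137867258, plus strand: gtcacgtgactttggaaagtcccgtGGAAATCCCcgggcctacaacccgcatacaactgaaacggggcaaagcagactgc

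Regulators of cell death and growth factor receptors changed in a few members. BBC3, which encodes the pro-apoptotic PUMA, rose from 4.37, 4.78, and 3.92 CPM to 29.2, 16.1, and 19.9 CPM (log2 fold-change 2.30 ± 0.24, adjusted p = 0.000286), and BMF, of the same BH3-only class, was higher too (1.80). BCL2, which opposes them, was lower (-1.50, adjusted p = 0.014, up to 0.0614 without untreated replicate 3). The BCL-2 family had 6 of 16 members higher and 2 lower. Those 6 became 3 without ND-646 replicate 2 or untreated replicate 1 or 3, and those 2 became 4 without ND-646 replicate 1 and 1 without untreated replicate 3. Among ERBB receptors and ligands, EGF was called higher (log2 fold-change 1.33 ± 0.21, adjusted p = 0.00222) and ERBB4 lower (-1.13). That list had 4 of 15 members higher and 2 lower, and the 4 became 2 without untreated replicate 1 or 2 and 1 without untreated replicate 3, and the 2 became 1 without ND-646 replicate 3 or any 1 untreated library.

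Among luminal and epithelial markers of the line, 3 of 13 were called higher and 1 lower. The claudin CLDN4 (1.57) and the epithelial factor ELF3 (1.38) rose. The keratin KRT8 was called lower (-0.74, adjusted p = 0.0497, and up to 0.158 without any 1 library other than ND-646 replicate 1). Its partner KRT18 did not pass the test (-0.21, adjusted p = 0.503) except without ND-646 replicate 1 (-0.52, adjusted p = 0.00108). The 1 lower became 3 without ND-646 replicate 1 and 0 without any other library.

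The genes with the largest changes included secreted and membrane proteins on both sides. Beside LCN2, GDF15, PIGR, NIBAN1, and CCL22, the 15 largest rises held CES1, a carboxylesterase, at 27.9, 18, and 19.9 CPM against 0.287, 0.492, and 1.01 CPM (log2 fold-change 5.22 ± 0.41, adjusted p = 0.000102). They also held the secretoglobin SCGB1D2 (3.95), the apocrine protein PIP (3.94), the calpain CAPN8 (4.13), the bestrophin channel BEST1 (3.93), the mucin MUC20 (3.88), the Rab27 effector SYTL2 (3.84), the chaperone CLGN (3.83), BEX2 (4.11), and PLEKHH2 (3.83). BEST1 overlaps the ferritin gene FTH1, which lies on the opposite strand and was far more abundant. Whether strand was used in counting is not given, so FTH1 reads may have been counted for BEST1 and its value is uncertain. SCGB2A2, the related secretoglobin mammaglobin, was not among the 15 and was chosen after its values were seen, since it rose from 278, 451, and 271 CPM to 6637, 3356, and 3006 CPM (log2 fold-change 3.69 ± 0.37, adjusted p = 0.000262).

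H19 (GRCh37 chr11:2016396-2025782, minus strand), an imprinted long non-coding RNA, headed the genes that fell, at 0.728, 0.359, and 0.562 CPM in ND-646 cells against 64.5, 40.7, and 59.8 CPM in untreated cells (log2 fold-change -6.66 ± 0.30, adjusted p = 5.47e-05). GJA5, a connexin of gap junctions, stood at 0.643, 0.933, and 0.983 CPM against 36.3, 48.6, and 34.3 CPM (log2 fold-change -5.53 ± 0.24, adjusted p = 5.47e-05). Beside ANGPTL4, RRM2, and E2F2, the 15 largest falls included the synaptic organizer CBLN2 (-4.87), the secreted CCDC3 (-4.81), the aromatic amino acid transporter SLC16A10 (-4.57), the natriuretic peptide clearance receptor NPR3 (-4.36), the atypical kinase MAPK4 (-4.32), the metalloproteinase MMP16 (-4.03), the kinase LRRK2 (-3.62), and the scaffold DLG2 (-3.56), together with LOC112694756.

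A set of 47 genes that the study's text names for its ND-646 libraries, mostly from the top of its rankings and not every gene it names, held 27 called higher and 20 lower, with no overlap between the groups. SCD, ACSS2, and PLSCR1, which it also names, are outside this set. At an unadjusted p under 0.05 and at least 2-fold, DESeq2 called 1221 genes higher and 1190 lower than in untreated day-7 cells. The study gives these same counts for ND-646 but names untreated day-0 cells as the reference. The 47 genes were picked for their size in these same ND-646 libraries, and probably against the same untreated day-7 ones. The 27 higher and 20 lower are therefore not independent evidence. Log2 fold-changes ran from 1.82 to 7.61 and from -2.23 to -6.66. The adhesion molecule CEACAM5, a carcinoembryonic antigen, stood at 49.0, 60.1, and 64.2 CPM against 4.5, 5.10, and 3.03 CPM (log2 fold-change 3.77 ± 0.23, adjusted p = 5.47e-05), and the calcium-binding S100P at 1305, 428, and 512 CPM against 64.5, 98.4, and 71.4 CPM (log2 fold-change 3.25 ± 0.43, adjusted p = 0.000915). MYEOV (3.08), the retinol dehydrogenase SDR16C5 (2.24), the sialyltransferase ST6GALNAC2 (1.89), and GPCPD1, which breaks down glycerophosphocholine (2.15), were also higher. GLDC, the glycine decarboxylase, fell from 61.0, 62.6, and 62.0 CPM to 7.75, 8.36, and 10.3 CPM (log2 fold-change -2.82 ± 0.15, adjusted p = 5.47e-05), and the KIT ligand KITLG (-2.65), the deiodinase DIO2 (-2.58), the histone kinase HASPIN (-2.38), and the chromatin remodeler HELLS (-2.32) were lower.

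Untreated cells at day 7 and at day 0 were compared to see whether the reference itself moved. At day 7, 53 genes were higher (0.389%) and 27 lower (0.198%), and 3 of the 13 fatty acid synthesis genes were among those higher. The counts depend on the test and on single libraries. DESeq2 called 552 higher and 586 lower, and edgeR called 0 and 0 without untreated day-7 replicate 2 or 3 or day-0 replicate 2, 3 and 2 without day-7 replicate 1, and 19 and 8 without day-0 replicate 3. At an unadjusted p under 0.05 it found 3256 genes with all 6 libraries and 1941 to 2747 where the calls became 0. With day-0 cells as the reference, 914 of the 1100 genes of at least 2-fold on the higher side (83.1%) and 936 of the 1127 on the lower side (83.1%) were again called at that size, out of 1431 and 1218.

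ND-646 and TVB-3166 block successive enzymes of the same pathway and were given at the same dose for the same time, so their libraries were compared directly. Few genes differed: 27 were higher (0.198%) and 71 lower (0.52%) in ND-646 than in TVB-3166 cells. Replicates of the same number deviated together in this pair of groups, and with the replicate number as a block 88 were higher (0.644%) and 222 lower (1.62%). Each of the first counts became 0 when any library but ND-646 replicate 1 was left out, and 689 and 829 without ND-646 replicate 1. At an unadjusted p under 0.05 edgeR found 2057 genes with all 6 libraries and between 1194 and 2230 where the calls became 0, and DESeq2 called 295 higher and 452 lower with all 6.

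Cell cycle genes made up part of the difference. Of 65 mitosis genes 15 were called lower in ND-646 than in TVB-3166 cells, and 47 with the block, with a median log2 difference of -1.13. In 59 of them (90.8%) every ND-646 library lay below every TVB-3166 library, against 12.2% of all genes. BUB1B stood at 9.64, 8.97, and 12.8 CPM in ND-646 cells, 29.5, 24.9, and 23.7 CPM in TVB-3166 cells, and 77.1, 75.6, and 79.6 CPM in untreated cells (ND-646 minus TVB-3166: log2 fold-change -1.32 ± 0.18, adjusted p = 0.0404, with the block adjusted p = 0.0231). CDK1 stood at 39.6, 26.9, and 32.2 CPM against 87.9, 68.4, and 61.5 CPM in TVB-3166 cells (log2 fold-change -1.15 ± 0.19, adjusted p = 0.0488, with the block adjusted p = 0.0223). TVB-3166 libraries thus lay between those of ND-646 and untreated cells in both genes. Replication genes had 1 of 45 members lower, 4 with the block, and 30 without overlap on the lower side (66.7%).

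In lipid metabolism the same test found little. Of the lists of fatty acid synthesis, desaturases, mevalonate, squalene to cholesterol, SREBP regulators, LXR, PPAR, and beta-oxidation, 0 members were called in either direction without the block, and between 0 and 2 per list with it. The median log2 difference was -0.13 in the mevalonate arm and -0.056 from squalene to cholesterol, and in 0 of their genes did the libraries of the 2 groups separate. In 4 of 13 desaturases and elongases (30.8%) every ND-646 library lay above every TVB-3166 library, and in 1 (7.69%) below. For SREBP regulators the numbers were 3 of 15 (20.0%) and 1, and for LXR targets 2 of 10 (20.0%) and 1. All genes gave 12.2% each way. At this depth of replication a p that misses the threshold does not show that the drugs act alike. FASN stood at 15336, 11360.1, and 15964 CPM in TVB-3166 cells, overlapping with the ND-646 libraries (log2 fold-change 0.11 ± 0.21, adjusted p = 0.843). ACACB stood at 21.5, 23.6, and 26.0 CPM in TVB-3166 cells, above all ND-646 libraries (log2 fold-change -1.56 ± 0.28, adjusted p = 0.0538, and with the block log2 fold-change -1.62, adjusted p = 0.0223).

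Single genes of other groups also separated the drugs. LCN2 stood at 12.2, 23.3, and 22.0 CPM in TVB-3166 cells, below all ND-646 libraries (log2 fold-change 2.64 ± 0.27, adjusted p = 0.035), and CES1 at 6.66, 8.13, and 5.86 CPM (log2 fold-change 1.66 ± 0.21, adjusted p = 0.0404). CYP1A1, a cytochrome controlled by the aryl hydrocarbon receptor, stood at 895, 1234, and 885 CPM in ND-646, 137, 194, and 184 CPM in TVB-3166, and 54.1, 376, and 98.9 CPM in untreated cells (log2 fold-change 2.54 ± 0.21, adjusted p = 0.0282). Its untreated libraries spread so widely that its difference from them was called with all libraries (adjusted p = 0.0173) and not without untreated replicate 3 (adjusted p = 0.0688). PANX2, a pannexin channel (2.25), and the ligand WNT5B (1.81) were higher with ND-646, and OAS2 (-1.64), MAPK4 (-2.89), LRRK2 (-2.15), the proton pump subunit ATP6V1B1 (-1.92), the mucin MUC5B (-1.87), and MAB21L4 (-1.73) were lower. For mRNAs of mitochondrial DNA 0 of 13 were called without the block and 6 were higher with it. Every ND-646 library lay above every TVB-3166 library in 14 of 29 ATF4 genes (48.3%) and 13 of 21 NRF2 targets (61.9%), and below in 0. Only 1 and 0 of them were called without the block. Among other lists, ribosomal protein genes lay above in 45 of 77 (58.4%) and below in 0. For endoplasmic reticulum chaperones the numbers were 9 of 22 (40.9%) and 0, and for lysosomal genes 13 of 38 (34.2%) and 1. Interferon effectors lay below in 7 of 21 (33.3%) and above in 0. Of pyruvate genes 7 of 16 (43.8%) lay lower and 1 higher, against 12.2% of all genes each way.

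Bleomycin breaks DNA and palbociclib inhibits CDK4 and CDK6, so neither drug acts on lipid synthesis first. Their doses differ from that of ND-646 and from each other, so the values are set side by side at 1 dose each. Against bleomycin, 437 genes were higher (3.18%) and 636 lower (4.63%) in ND-646 cells. With the replicate number as a block, 873 (6.35%) and 1104 (8.03%) were. Same-numbered libraries again deviated together, but ND-646 replicate 2 correlated better with bleomycin replicate 3 (0.237) than with replicate 2 (0.109). The counts with the block are therefore less certain here. With 1 library left out and no block the counts ranged from 36 to 952 and from 142 to 1097. Against palbociclib, 1690 were higher (12.3%) and 1770 lower (12.9%), and from 595 to 2955 and from 785 to 2904 with 1 library left out.

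Sterol synthesis was higher with ND-646 than with either drug. Against bleomycin, 5 of 9 mevalonate genes (7 with the block) and 5 of 12 from squalene to cholesterol (10 with the block) were called higher, and against palbociclib 7 and 9, with 0 lower in either comparison. Palbociclib cells themselves had 6 of 9 mevalonate genes lower than untreated day-7 cells and 0 higher (median log2 fold-change -0.44). From squalene to cholesterol they had 4 of 12 higher and 3 lower. The difference from palbociclib in the mevalonate arm thus includes a fall under palbociclib. Bleomycin cells had 0 higher and 2 lower in the mevalonate arm, and 2 and 2 in the other. MSMO1 stood at 149.9, 152, and 130.5 CPM in bleomycin and 131, 117, and 133 CPM in palbociclib cells, below every ND-646 library (log2 differences 1.65, adjusted p = 0.0109, and 1.83, adjusted p = 0.00299). ABCG1 (2.08 and 2.56), FASN (1.4 and 0.99), and SCD (1.28 and 1.46) were higher against both. ANGPTL4 stood at 8.34, 10.8, and 7.96 CPM in bleomycin and 10.6, 12.4, and 10.0 CPM in palbociclib cells, all above the ND-646 libraries (log2 differences -4.40 and -4.68).

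**Figure D5:**
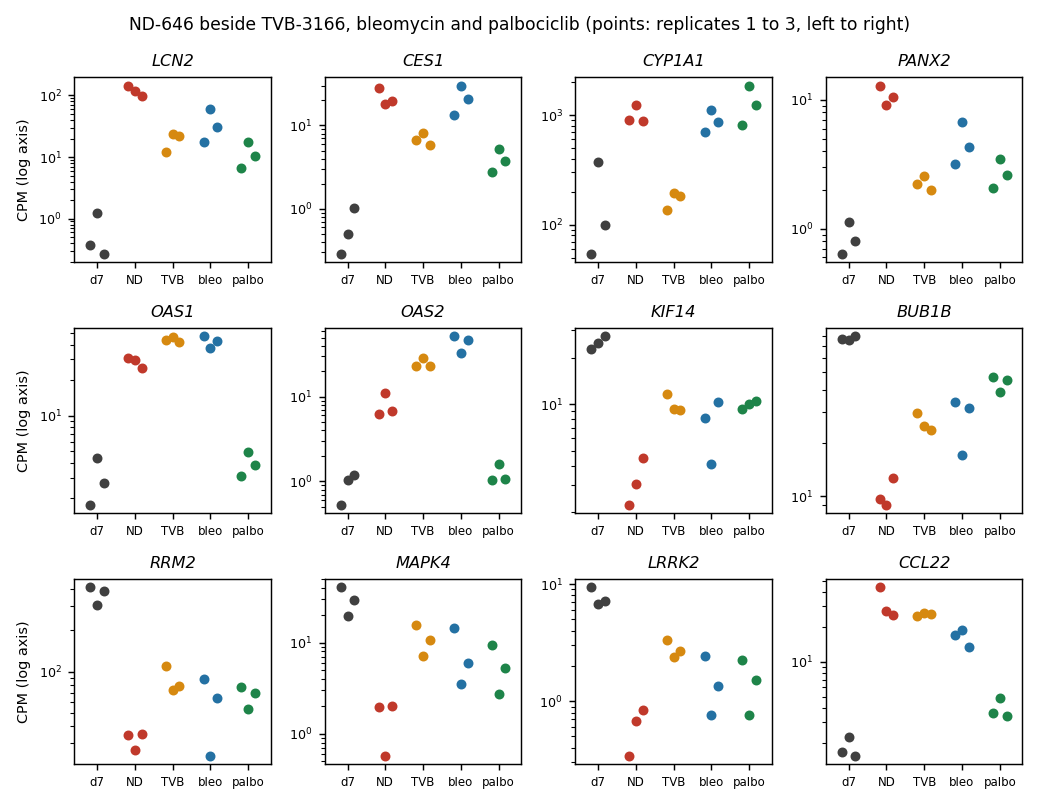
CPM (y axis, log scale) of 12 genes (panels) in untreated day-7 (d7), ND-646 (ND), TVB-3166 (TVB), bleomycin (bleo), and palbociclib (palbo) cells, with 1 point for each of 3 libraries. LCN2 and PANX2 are highest with ND-646, OAS2 is highest with bleomycin and near the untreated level with palbociclib, and BUB1B is lowest with ND-646.

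Immune genes ordered the drugs differently. Against bleomycin, 14 of 21 interferon effectors were lower in ND-646 cells (16 with the block, median log2 difference -1.90), and 7 of 22 MHC class I genes (11 with the block). Against palbociclib, 10 of 21 effectors were higher and 0 lower. Palbociclib cells themselves had 4 of 21 effectors higher and 8 lower than untreated day-7 cells (median log2 fold-change 0.14), and bleomycin cells 16 higher and 1 lower. OAS2 stood at 51.5, 33.1, and 46.6 CPM in bleomycin, 6.21, 11.1, and 6.74 CPM in ND-646, and 1.04, 1.62, and 1.08 CPM in palbociclib cells, with no overlap between neighbours (ND-646 minus bleomycin -2.46, adjusted p = 0.00298; ND-646 minus palbociclib 2.68, adjusted p = 0.00153). NF-κB and inflammatory genes had 7 of 26 members lower and 2 higher against bleomycin and 13 higher and 3 lower against palbociclib. ICAM1 stood at 60.5, 50.4, and 71.6 CPM in bleomycin cells, above every ND-646 library (-1.82), whereas LCN2 stood at 17.5, 61.3, and 31.2 CPM, below them (1.70).

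Stress and cell cycle genes completed the comparison. ATF4 targets were higher with ND-646 than with palbociclib in 22 of 29 members and lower in 1, and higher than with bleomycin in 7 (13 with the block) and lower in 1. Mitosis genes were lower with ND-646 than with palbociclib in 49 of 65 members and higher in 1, and lower than with bleomycin in 14, or 51 with the block. MKI67 stood at 83.7, 53.3, and 75.9 CPM in palbociclib and 151, 52.6, and 105 CPM in bleomycin cells, so that both groups lay above the ND-646 libraries (log2 differences -1.06 and -1.60). CDKN1A stood at 26.5, 26.3, and 24.4 CPM in palbociclib and 33.7, 31.6, and 39.0 CPM in bleomycin cells, and ND-646 differed from the former (1.10, adjusted p = 0.0431) and not detectably from the latter (0.66, adjusted p = 0.246).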

How the data were processed

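SKBR3 libraries were grouped and numbered as their labels state. The authors' values are read counts: whole numbers for each gene, deposited without normalization after alignment to GRCh37 with HISAT2 and assembly with StringTie. How reads were counted, and whether strand was used, is not given in the sources used here, so overlapping genes are uncertain. The methods name a total RNA kit and the labels an mRNA kit. The lowest count in the table is 1, and genes below it were not tested here. The spread between replicates limits the precision more than counting error, except at few counts, and intervals of counting error were not needed.

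The fit of each comparison held the libraries of its 2 groups alone, used edgeR 4.0.16 under R 4.3.3 with a quasi-likelihood F test, and followed TMM scaling and the filterByExpr count filter. Standard errors came from the F statistic. CPM used TMM factors over all 24 libraries. An exact permutation test of 3 against 3 libraries cannot go below p = 0.1, so the model across all genes was used. The labels do not say what a replicate number marks. Same-numbered libraries deviated together from their group means in ND-646 and TVB-3166 (correlations 0.380, 0.213, and 0.292) and in ND-646 and bleomycin (0.377, 0.109, and 0.368), where a fit with the replicate number as a block is given as well. In the pair with bleomycin, ND-646 replicate 2 correlated best with bleomycin replicate 3 (0.237) and not with its own number. The alternatives were DESeq2 1.42.0, RLE size factors, a stricter count filter and none, 24 libraries in 1 fit, the replicate block, day-0 cells as reference, the raw p-value with a 2-fold change that the study used, and each library left out.

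The comparison, the 33 gene lists, and the genes named were chosen with earlier results of these data known. Named genes are the 15 largest rises and 15 largest falls (adjusted p under 0.05, no overlap, mean of at least 5 CPM in the higher group), ACACA, ACACB, and FASN, up to 6 called members of each list with the largest change and members needed to read it, the 5 genes farthest above and below TVB-3166 by the same conditions, and genes the study names for ND-646. Some genes are not reported here. Positions on GRCh37 were found for 171 of 174 genes named. Promoter windows, from 250 bases before to 50 after the start, came from RefSeq (GRCh38.p14). Counts for ND-646 against untreated day 7 were simulated over 13704 genes, 100 changed by 1 and 100 by 2 on the log2 scale. Of these edgeR recovered 44 and 94, with 4 false calls, and DESeq2 63 and 95, with 24. All other genes were simulated unchanged and independently, whereas 17.2% and 17.1% of genes were called in the data. Recovery in the data may therefore differ.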

Additional observations from a re-analysis of the deposited data

Results flagged for a closer look

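Among the genes named, 22 differed between ND-646 and TVB-3166 by a direct test of the 2 groups' libraries (edgeR's quasi-likelihood test, adjusted p from 0.0282 to 0.0488, and from 0.00647 to 0.0419 with the replicate number as a block). Of all 13662 genes tested, 27 were higher (0.198%) and 71 lower (0.52%), and 10 of the 22 meet the naming rule by differing most here, so their number is no result. The values are log2 differences, ND-646 minus TVB-3166. Higher with ND-646 were LCN2 (2.64), CYP1A1 (2.54), the channel PANX2 (2.25), the ligand WNT5B (1.81), the carboxylesterase CES1 (1.66), the chaperone CLGN (1.23), and the macrophage growth factor CSF1 (0.94). Of the 15 lower genes, 8 belong to cell division and DNA synthesis, namely the motors KIF14 (-1.63) and KIF11 (-1.20), the reductase subunit RRM2 (-1.46), the condensin subunit NCAPH (-1.39), the kinetochore scaffold KNL1 (-1.39), the checkpoint kinase BUB1B (-1.32), the helicase factor CDC45 (-1.25), and the kinase CDK1 (-1.15). The others were the kinases MAPK4 (-2.89) and LRRK2 (-2.15), the proton pump subunit ATP6V1B1 (-1.92), the mucin MUC5B (-1.87), MAB21L4 (-1.73), the antiviral OAS2 (-1.64), and the glycine decarboxylase GLDC (-0.99). Without the block, 0 genes of the whole table were called when any library other than ND-646 replicate 1 was left out, with 1194 to 2230 genes at an unadjusted p under 0.05, and 2057 with all 6 libraries.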

How the results depend on the processing

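Of the 174 genes named, 13 lost and 5 gained a call against untreated day-7 cells under at least 1 alternative. The sign turned in 2 genes that were not called, CDC25B (from -0.27 without ND-646 replicate 1 to 0.083 without replicate 2) and ERBB2 (from -0.0044 without ND-646 replicate 1 to 0.20 without replicate 2). With day-0 cells as the reference, ERBB4, HACD2, ND5, ALDOA, and MLYCD lost their calls, and the list medians were -0.058 for triglyceride genes and -0.0026 for endoplasmic reticulum chaperones, in place of values above 0. With 1 library left out, 1264 to 3697 genes were higher and 1450 to 3921 lower than in untreated day-7 cells, and 868 to 1143 and 967 to 1246 at 2-fold or more. The ranges were 0 to 689 and 0 to 829 against TVB-3166, 36 to 952 and 142 to 1097 against bleomycin, 595 to 2955 and 785 to 2904 against palbociclib, and 0 to 54 and 0 to 40 for day 7 against day 0, and the highest counts of each ND-646 comparison were without ND-646 replicate 1. With 24 libraries in 1 fit, 3667 genes were higher than in day-7 cells, and the counts higher and lower were 635 and 633 against TVB-3166, 2291 and 2139 against bleomycin, 3237 and 2943 against palbociclib, and 245 and 196 for day 7 against day 0. DESeq2 called 295 and 452 against TVB-3166, 987 and 1106 against bleomycin, and 552 and 586 for day 7 against day 0. Without a count filter edgeR called 9 and 23 against TVB-3166 and 0 and 0 for day 7 against day 0, where 3335 genes had an unadjusted p under 0.05. With the replicate number as a block the counts were 88 and 222 against TVB-3166, 873 and 1104 against bleomycin, and 713 and 550 for day 7 against day 0, where 1 same-number correlation (0.222, 0.0711, and 0.137) is under the 0.1 required for pairing and each library again correlated best with its own number. The cause was not tested for any of these. ND-646 and untreated day-7 libraries share only a number: correlations of same-numbered libraries were 0.170, 0.156, and 0.0865, and each library correlated best with its own number, a hint from the data. The block gave 1054 genes at least 2-fold higher and 1145 lower, of which 1017 and 1108 were also counted without it. On the simulated counts, with 3 libraries a group, edgeR missed many 2-fold changes. The share missed in these data was not estimated. Depth limits only genes of few counts.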
